A study of Mus musculus with 6 samples.

Results

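Immediate early genes are transcribed within minutes of a stimulus from regulators that are already present in the cell, and their mRNAs are short lived. This account covers 10 of them that lie outside the AP-1 family, chosen by gene name among the 34745 genes of the expression table: *Egr1*, *Egr2*, *Egr3*, *Nr4a1*, *Nr4a2*, *Nr4a3*, *Dusp1*, *Ier2*, *Ier3* and *Btg2*. The RNA came from cardiac fibroblasts of the left ventricle, taken on Day 7 after myocardial infarction (MI) from male mice aged 8 to 10 weeks, in 3 libraries labelled KO (KDM5B knockout) and 3 labelled WT (littermates). Both groups had undergone MI by ligation of a coronary artery, and no library came from an uninjured heart. The cells were isolated from the tissue before RNA extraction, and an effect of the isolation on these genes was not tested. The knockout was a germline deletion in *Kdm5b*, the gene of a histone demethylase, on a C57BL/6 background, so every cell type of the heart carried it. Nothing in the labels ties a library to 1 animal, and the p-values therefore measure the spread between these libraries.

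The Egr proteins are zinc finger transcription factors, and the Nr4a proteins are nuclear receptors that bind DNA without a known hormone. Dusp1 is a nuclear phosphatase that switches off MAP kinases, Ier2 and Ier3 are small proteins whose genes respond to growth factors and stress, and Btg2 slows proliferation and promotes mRNA deadenylation. In fibroblasts, serum, growth factors and mechanical stress reach these genes mainly through serum response factor with its ternary complex factors, which bind the CArG box, and through CREB, which binds the cAMP response element (CRE).

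RefSeq promoter windows (GRCm38.p6), which run from 250 bases before to 50 bases after a transcript start, were matched by symbol for 7 of the 10 members, and there was none for *Egr1*, *Egr3* or *Ier2*. The windows of the 4 called members that had one are printed here, with 1 of the 5 *Egr2* windows, to show where the letters that CREB and serum response factor are known to bind were found. The window of *Ier3* held none of the motifs in capitals. Capitals mark the CArG box, TGACGTCA (the full CRE), TGACG (its first 5 bases), GCGNGGGCG (the Egr site) and TATAAA, matched exactly on either strand. CGTCA is TGACG read on the other strand. Each window is written 5′ to 3′ on the strand of its gene.
*Nr4a1*, chr15:101266596-101266895, plus strand: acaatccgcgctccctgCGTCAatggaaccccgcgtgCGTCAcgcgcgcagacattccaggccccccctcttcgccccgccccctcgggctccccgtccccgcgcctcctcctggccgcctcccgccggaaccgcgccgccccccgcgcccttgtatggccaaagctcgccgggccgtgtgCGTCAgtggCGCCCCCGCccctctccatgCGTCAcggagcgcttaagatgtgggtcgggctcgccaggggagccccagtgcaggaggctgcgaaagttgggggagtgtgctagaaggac
*Dusp1*, chr17:26508423-26508722, minus strand: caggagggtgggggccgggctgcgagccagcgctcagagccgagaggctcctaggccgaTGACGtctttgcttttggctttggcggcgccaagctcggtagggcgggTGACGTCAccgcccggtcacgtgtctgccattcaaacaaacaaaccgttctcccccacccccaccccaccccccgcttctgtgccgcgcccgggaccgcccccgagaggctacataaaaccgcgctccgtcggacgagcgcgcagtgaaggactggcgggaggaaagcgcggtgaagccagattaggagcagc
*Ier3*, chr17:35821463-35821762, plus strand: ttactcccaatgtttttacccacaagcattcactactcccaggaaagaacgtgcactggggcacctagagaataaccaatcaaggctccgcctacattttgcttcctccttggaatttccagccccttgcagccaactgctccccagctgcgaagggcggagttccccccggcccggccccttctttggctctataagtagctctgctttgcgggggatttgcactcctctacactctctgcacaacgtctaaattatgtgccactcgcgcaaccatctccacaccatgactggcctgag
*Btg2*, chr1:134079106-134079405, minus strand: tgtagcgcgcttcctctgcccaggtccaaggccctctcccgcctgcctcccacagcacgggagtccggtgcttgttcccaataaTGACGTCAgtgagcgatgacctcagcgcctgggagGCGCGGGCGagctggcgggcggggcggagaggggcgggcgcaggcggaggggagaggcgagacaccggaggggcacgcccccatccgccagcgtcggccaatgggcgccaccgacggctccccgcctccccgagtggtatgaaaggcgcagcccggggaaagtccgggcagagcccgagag
*Egr2*, chr10:67537619-67537918, plus strand: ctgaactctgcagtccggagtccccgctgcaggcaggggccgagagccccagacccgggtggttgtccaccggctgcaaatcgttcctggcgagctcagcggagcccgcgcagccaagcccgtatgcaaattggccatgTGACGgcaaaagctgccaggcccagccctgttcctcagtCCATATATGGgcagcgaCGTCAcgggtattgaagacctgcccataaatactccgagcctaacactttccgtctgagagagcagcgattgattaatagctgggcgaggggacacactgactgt

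TGACGTCA was found in *Dusp1*, beginning at position -143 from the start, and in *Btg2*, beginning at -166, and in 1.79% of all 32851 windows. *Dusp1* and *Btg2* changed in opposite directions. The shorter TGACG, which also lies inside TGACGTCA on both strands, was found in 6 of the 7 members with a window and in 20.8% of all windows. *Nr4a1* held it 4 times, each on the other strand, *Nr4a2* and *Nr4a3* also held it 4 times each, and *Ier3* did not hold it. A CArG box (CC, 6 letters of A or T, GG) was found in 4 of the 5 windows of *Egr2*, which overlap in part, and in 1.63% of all windows. The Egr site GCGNGGGCG was found in *Nr4a1*, *Nr4a2* and *Btg2* and in 5.55% of all windows, and the Ets core CCGGAA, which ternary complex factors are known to bind, in *Egr2* and *Nr4a1* and in 14.9%. TATAAA was found in *Nr4a2* and in 13.6% of all windows. Neither TGANTCA, the AP-1 site (7.81% of all windows), nor AAAGGTCA, the NBRE of the Nr4a proteins (1.51%), was in the windows of these 7 genes. These are matches of letters in a short window, and binding was not measured.

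Each member was found on 1 row of the table, on 9 chromosomes, and no other listed gene overlapped any of them. Coordinates are those of the table (mm10). *Egr1* (ENSMUSG00000038418) lies on chromosome 18 from 34859823 to 34864984, *Egr2* (ENSMUSG00000037868) on chromosome 10 from 67535475 to 67542188, and *Egr3* (ENSMUSG00000033730) on chromosome 14 from 70077445 to 70080157. *Nr4a1* (ENSMUSG00000023034) lies on chromosome 15 from 101266846 to 101274792, *Nr4a2* (ENSMUSG00000026826) on chromosome 2 from 57106830 to 57124003, and *Nr4a3* (ENSMUSG00000028341) on chromosome 4 from 48045153 to 48086447. *Dusp1* (ENSMUSG00000024190, 26505590 to 26508519) and *Ier3* (ENSMUSG00000003541, 35821684 to 35822923) share chromosome 17. *Ier2* (ENSMUSG00000053560) lies on chromosome 8 from 84661331 to 84662852, and *Btg2* (ENSMUSG00000020423) on chromosome 1 from 134075170 to 134079120. The members were compact. All 9 that could be tested spanned less than the median locus of the tested genes (22573 bases), with a median of 3951 bases and a minimum of 1240 bases in *Ier3*. *Nr4a3*, the member that was too low to test, spanned 41295 bases.

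Totals ran from 12025403 to 15329427 counts per library. *Kdm5b* had 98.0, 107 and 105 CPM (counts scaled to the library total with TMM factors) in KO-1 to KO-3 and 108, 128 and 123 in those labelled WT, and did not pass the threshold (adjusted p = 0.0574, edgeR). It did pass with the replicate number as a block (adjusted p = 0.0270), under upper quartile scaling (0.0324) and without WT-1 (0.0188), all from edgeR. The KO mean was 0.861 times the WT mean. The log2 fold change was -0.22 under TMM and 0.16 under the marker scaling described below (adjusted p = 0.112 from edgeR). By contrast, the paper reports almost no KDM5B mRNA or protein in fibroblasts of the knockout mice, by Q-PCR and immunoblot. The libraries are called by their labels. *Xist* (90.4 to 131 CPM) and the Y-linked *Ddx3y* (64.4 to 90.7 CPM) were both counted in every library, although the mice are described as male. The biological coefficient of variation between replicates was 10.9%. Of the marker genes, all 12 for fibroblasts were lower in the libraries labelled KO (summed CPM of 27198 to 31665 against 38047 to 40474) and 11 of 12 for endothelial cells were higher (1524 to 2190 against 287 to 297).

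The first question was which of these genes differed between the labels. *Nr4a1*, *Dusp1* and *Ier3* were higher in the libraries labelled KO, *Egr1* and *Btg2* were lower, and *Egr2*, *Egr3*, *Nr4a2* and *Ier2* did not pass the threshold. The test was edgeR's quasi-likelihood test with Benjamini-Hochberg adjustment over 14084 genes and a threshold of 0.05, and 9 of the 10 members passed its filter on low counts. Of these 9, 3 were higher, beside 17.7% of all tested genes, and 2 were lower, beside 12.5% of all tested genes (5 in either direction, beside 30.2%). The labels did not overlap in 7 of the 9 members, beside 47% of all tested genes. With a fold change above 2 in addition, *Nr4a1* and *Dusp1* remained, beside 5.99% of all tested genes higher and 0.27% lower. The members had no common direction: their median log2 fold change was -0.13, beside -0.02 over all tested genes, and the median size of their change was 0.30, beside 0.22. All of these values are under TMM. Under the marker scaling described below, *Ier2* was called higher as well and no member was called lower. Of all tested genes, 58.3% were called higher there and 0.454% lower.

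**Figure D1:**
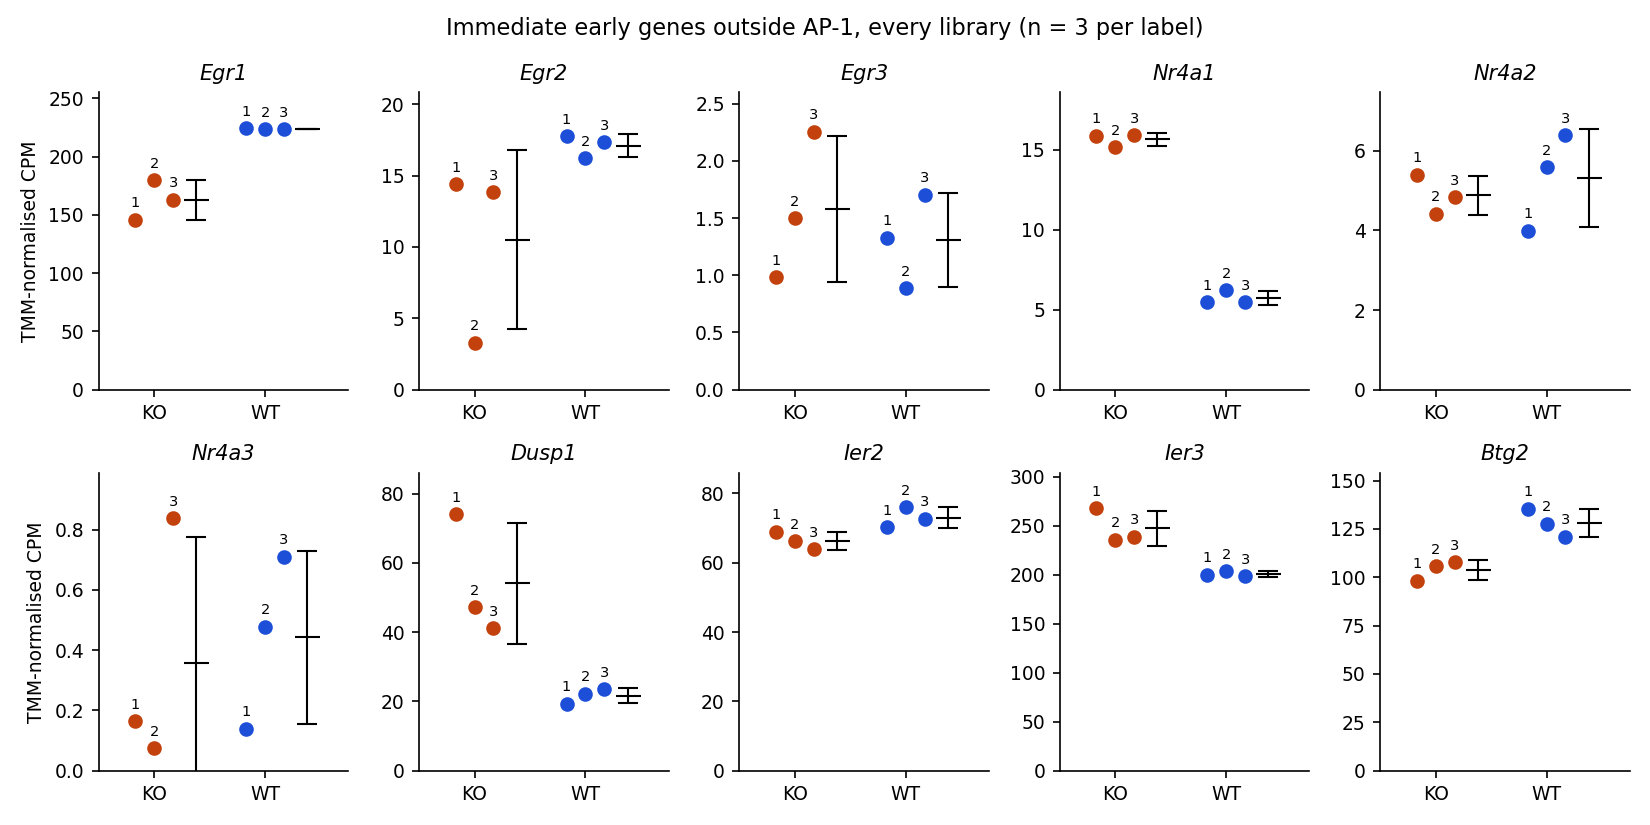
TMM-normalised CPM (linear axes from 0) of the 10 genes in each library, with the replicate number above each point and the mean and SD beside the 3 points of a label. *Nr4a1*, *Dusp1* and *Ier3* lie higher in the libraries labelled KO, *Egr1* and *Btg2* lower, and *Egr2* is set apart by the library KO-2 at 3.30 CPM.

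*Nr4a1*, also known as Nur77, had 15.9, 15.1 and 15.9 CPM in KO-1 to KO-3 and 5.45, 6.20 and 5.47 CPM in WT-1 to WT-3. The 3 values of a label were close together and the labels did not overlap, at 2.74 times the WT mean. The log2 fold change was 1.45 (SE 0.11, 95% confidence interval 1.20 to 1.71, adjusted p = 5.61e-05 from edgeR). The two-sided exact permutation test over the 6 libraries cannot go below 0.1, and gave p = 0.1 for this and every other tested member whose labels did not overlap. *Nr4a2*, or Nurr1, did not follow it, with 5.40, 4.42 and 4.83 CPM in KO-1 to KO-3 and 3.99, 5.59 and 6.39 CPM in WT-1 to WT-3. The labels overlapped (log2 fold change -0.13, SE 0.20, confidence interval -0.58 to 0.33, adjusted p = 0.67 from edgeR), and the sign turned under marker scaling (0.25) and without WT-3 (0.02). *Nr4a3*, or Nor1, was close to the floor of 3 counts, with raw counts of 2, 1 and 13 in KO-1 to KO-3 and 2, 7 and 10 in WT-1 to WT-3. It did not pass the filter, and p was 0.8 in the two-sided exact permutation test. Per kilobase of exons, *Nr4a1* made up 82.5%, 84.7% and 82.9% of the summed level of the 3 receptors in KO-1 to KO-3 and 68.7%, 63.3% and 56.6% in WT-1 to WT-3. *Nr4a1* held the largest share in every library.

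*Dusp1*, the MAP kinase phosphatase, had 74.0, 47.1 and 41.1 CPM in KO-1 to KO-3 and 19.4, 22.2 and 23.5 CPM in WT-1 to WT-3. KO-1 stood above KO-2 and KO-3, and each of the 3 lay above every library labelled WT. The log2 fold change was 1.31 (SE 0.21, confidence interval 0.84 to 1.79, adjusted p = 0.00227 from edgeR), or 2.49 times the WT mean, and 1.03 without KO-1 (adjusted p = 5.75e-04 from edgeR). KO-1 also had the highest summed endothelial marker CPM (2190, against 1524 in KO-2 and 1787 in KO-3), and the part of these cells in the *Dusp1* values was not tested. *Ier3*, which is known to modulate apoptosis, had 268, 236 and 239 CPM in KO-1 to KO-3 and 200, 204 and 198 CPM in WT-1 to WT-3. It had the highest level of the members per kilobase, although *Egr1* was above it in CPM in the libraries labelled WT, and its labels did not overlap. The difference was small in proportion, with a log2 fold change of 0.30 (SE 0.06, confidence interval 0.17 to 0.43, adjusted p = 0.00554 from edgeR), and KO-1 was again the highest library. *Ier2*, which is induced together with *Ier3* by growth factors, had 68.9, 66.2 and 63.9 CPM in KO-1 to KO-3 and 70.2, 76.1 and 72.7 CPM in WT-1 to WT-3. The labels did not overlap, but the difference did not pass the threshold (log2 fold change -0.14, SE 0.06, adjusted p = 0.112 from edgeR), and under marker scaling its sign turned and it was called higher (0.24, adjusted p = 0.0229).

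*Egr1*, the Egr factor with the highest level in these cells, had 146, 180 and 163 CPM in KO-1 to KO-3 and 224, 223 and 224 CPM in WT-1 to WT-3. The libraries labelled WT were almost equal, with a coefficient of variation of 0.163%, below the 1.77% that counting error alone gives at their mean count, and the libraries labelled KO lay below them with a coefficient of variation of 10.5%. The log2 fold change was -0.46 (SE 0.07, confidence interval -0.63 to -0.29, adjusted p = 0.00241 from edgeR), a mean 1.37 times lower. Under marker scaling it was -0.08 and was not called (adjusted p = 0.275 from edgeR). *Egr2*, or Krox20, had 14.4, 3.30 and 13.8 CPM in KO-1 to KO-3 and 17.8, 16.2 and 17.3 CPM in WT-1 to WT-3. KO-2 stood apart, with 44 counts where KO-1 had 176 and KO-3 had 215, and no library labelled KO reached the lowest library labelled WT. The log2 fold change was -0.70 (SE 0.41, confidence interval -1.64 to 0.24, adjusted p = 0.236 from edgeR), and without KO-2 it was -0.27 (adjusted p = 0.1). Among the libraries labelled KO, KO-2 had the lowest summed endothelial marker CPM (1524) and the highest summed fibroblast marker CPM (31665), while its summed macrophage marker CPM (1322) lay between those of KO-3 (1285) and KO-1 (1326). The part of these cells in the *Egr2* value was not tested. *Egr3*, a close relative of *Egr1*, was low, with 12, 20 and 35 counts in KO-1 to KO-3 and 19, 13 and 24 counts in WT-1 to WT-3. The labels overlapped (log2 fold change 0.30, SE 0.37, confidence interval -0.56 to 1.16, adjusted p = 0.582 from edgeR), and without KO-3 the sign turned (-0.06). *Egr1* held 86.5% to 95.2% of the summed level of the 3 Egr genes per kilobase of exons in KO-1 to KO-3 and 88.8% to 90.2% in WT-1 to WT-3.

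*Btg2* had 98.2, 106 and 108 CPM in KO-1 to KO-3 and 136, 128 and 121 CPM in WT-1 to WT-3. Every library labelled KO lay below every library labelled WT. The log2 fold change was -0.30 (SE 0.06, confidence interval -0.44 to -0.16, adjusted p = 0.00778 from edgeR), and under marker scaling it was 0.08 (adjusted p = 0.35).

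The falls were next set beside those of the marker genes, in values chosen after the first results were seen. The median log2 fold change was -0.42 for the fibroblast markers, -0.42 for the cardiomyocyte markers and -0.39 for the macrophage markers, beside -0.46 for *Egr1*. All 12 fibroblast markers were called lower, as were 8 of 11 tested cardiomyocyte markers (5 without KO-3, without WT-3 or with limma on log2(FPKM + 0.1)). Of the 12 macrophage markers, 6 were lower, 4 were not called and 2 were higher (*Cd68* at 1.38 and *Mertk* at 1.04, chosen after their values were seen). In bulk RNA, fewer cells of a type and less RNA per cell cannot be told apart. Per 1000 summed fibroblast marker CPM, *Egr1* had 5.35, 5.68 and 5.41 CPM in KO-1 to KO-3 and 5.89, 5.52 and 5.53 CPM in WT-1 to WT-3. On this scale the labels overlapped, and the mean of the libraries labelled KO was 0.971 times that of the libraries labelled WT. *Btg2* also overlapped, with 3.61, 3.34 and 3.58 against 3.56, 3.15 and 3.00, at 1.08 times the WT mean. *Nr4a1*, *Dusp1*, *Ier3* and *Ier2* lay above the libraries labelled WT on the fibroblast scale, at 3.68, 3.40, 1.66 and 1.22 times the WT mean. The fibroblast sum itself was 0.748 times as high in the libraries labelled KO, which lifts every gene on this scale, and 65.7% of all tested genes lay above in the same way. The same 4 members lay above on the macrophage and cardiomyocyte scales, beside 59.3% and 67.7% of all tested genes. Against the summed endothelial markers, which were 6.27 times higher in the libraries labelled KO, all 9 tested members lay below the libraries labelled WT, as did 96.6% of all tested genes, so the divisor sets this outcome. The part of the endothelial cells in the rises of *Nr4a1*, *Dusp1* and *Ier3* was not tested.

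**Figure D2:**
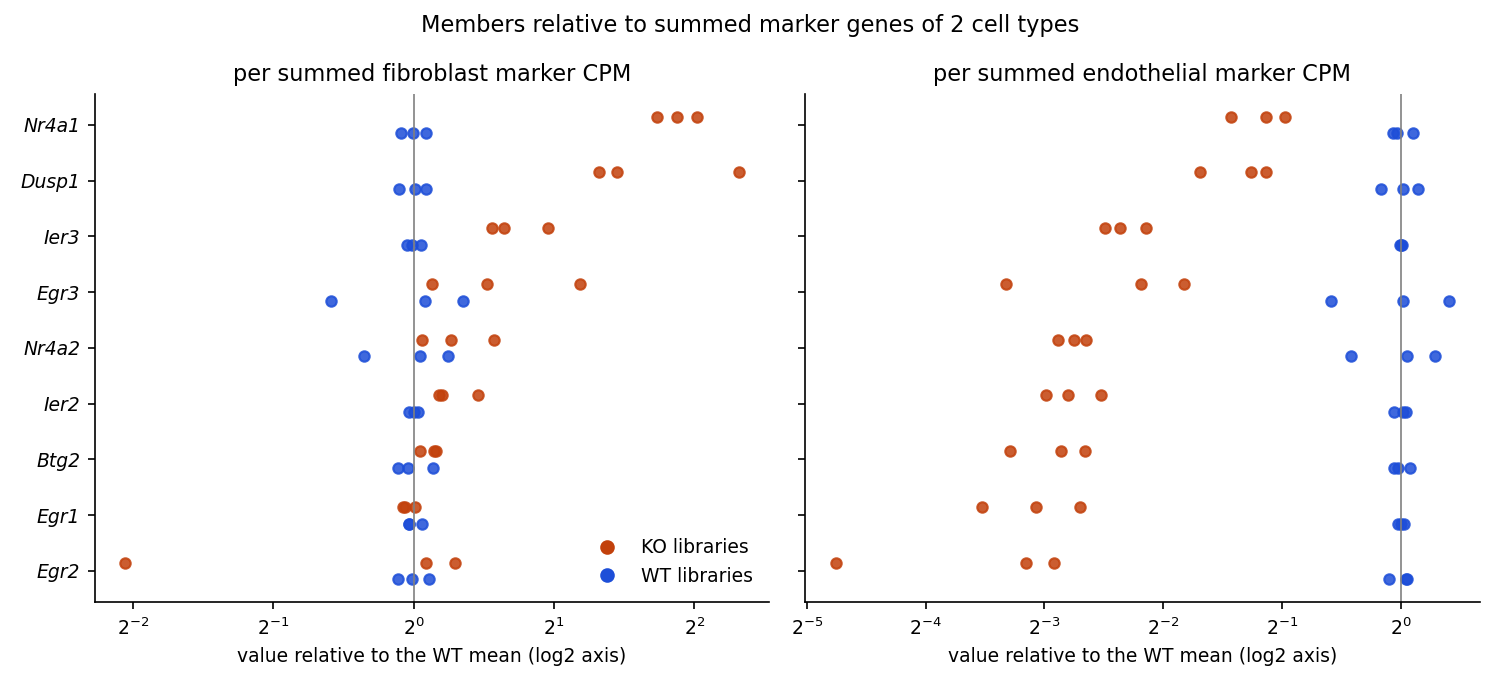
CPM of each tested gene divided by the summed CPM of 12 fibroblast marker genes (left) or 12 endothelial marker genes (right) in the same library, relative to the mean of the libraries labelled WT (log2 axes). Points are single libraries; on the left *Nr4a1*, *Dusp1*, *Ier3* and *Ier2* lie above the libraries labelled WT and *Egr1* and *Btg2* overlap them, beside 65.7% of all tested genes above, and on the right, where the divisor was 6.27 times higher in the libraries labelled KO, all 9 genes lie below, beside 96.6% of all tested genes.

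Marker scaling, which sets the median ratio of the cardiomyocyte and macrophage markers to 1, moved the median of all tested genes from -0.02 to 0.36. Under it 58.3% of all tested genes were called higher and 0.454% lower. The median of the fibroblast markers was then -0.04, and that of the cardiomyocyte markers was -0.04 by the construction of the scaling. *Nr4a1* (1.83), *Dusp1* (1.70) and *Ier3* (0.68) were still called higher, with adjusted p = 1.51e-05, 3.27e-04 and 1.80e-04 from edgeR. *Egr1* was at -0.08 (adjusted p = 0.275 from edgeR) and was not called lower. Relative to the median of all tested genes the fold changes did not move by more than 0.02, with *Egr1* at -0.44 under TMM and -0.45 under marker scaling. A change of scaling adds nearly the same amount to every gene, so the method sets this outcome. Ratios between members do not depend on the scaling, and were also chosen after the values were seen. The level of *Nr4a1* per *Egr1* was 0.198, 0.153 and 0.177 in KO-1 to KO-3 and 0.0441, 0.0503 and 0.0443 in WT-1 to WT-3, per kilobase of exons. That of *Ier3* per *Btg2* was 6.61, 5.41 and 5.36 in KO-1 to KO-3 and 3.58, 3.87 and 3.97 in WT-1 to WT-3. Both ratios were higher in every library labelled KO. That of *Egr1* per *Btg2*, the 2 members that fell, overlapped, with 0.907, 1.04 and 0.925 in KO-1 to KO-3 and 1.01, 1.07 and 1.13 in WT-1 to WT-3.

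**Figure D3:**
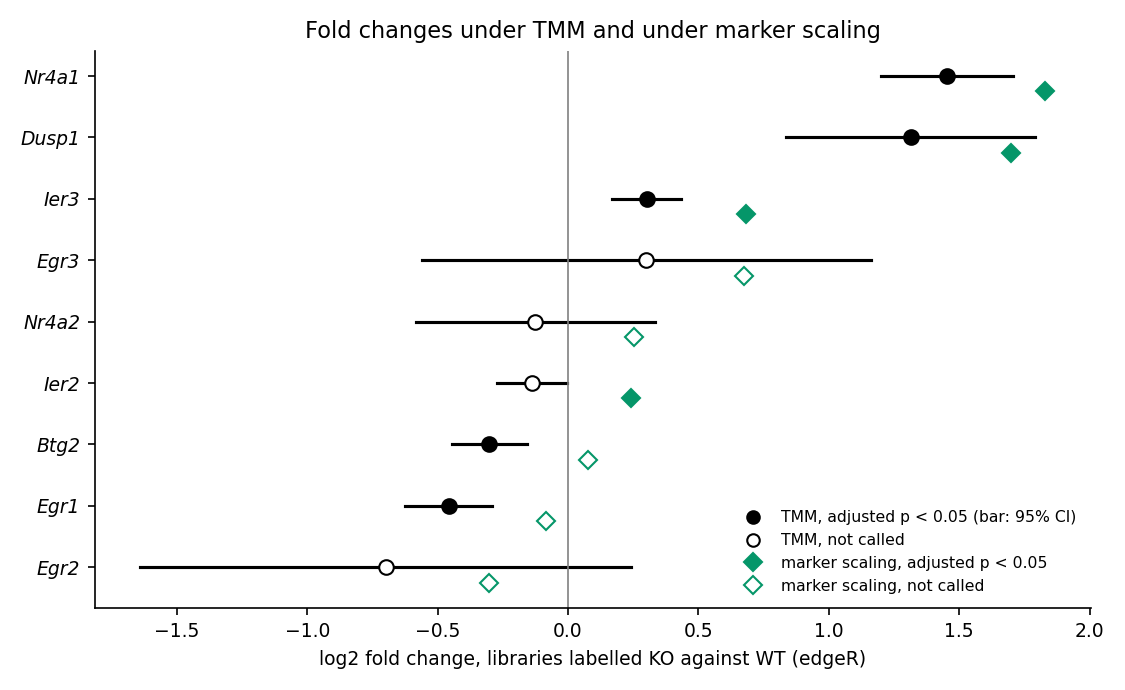
Log2 fold change of the 9 tested genes with its 95% confidence interval under TMM (circles, bars) and under marker scaling (diamonds), filled where the adjusted p was below the threshold. *Nr4a1*, *Dusp1* and *Ier3* are filled on both scales, while *Egr1* (-0.46 and -0.08) and *Btg2* (-0.30 and 0.08) are filled under TMM only, and *Ier2* (-0.14 and 0.24) under marker scaling only.

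The levels of the members spanned more than 3 orders of magnitude. In the deposited FPKM (fragments per kilobase of gene length, scaled to the library total), the order in the libraries labelled WT was *Ier3* (175), *Ier2* (47.4), *Btg2* (46.2), *Egr1* (29.4), *Dusp1* (4.17), *Egr2* (3.12), *Nr4a1* (2.28), *Egr3* (0.912), *Nr4a2* (0.827) and *Nr4a3* (0.0396). The ranges of *Ier2* and *Btg2* overlapped, as did those of *Egr3* and *Nr4a2*. For each of the 10 members, the gene length behind these values equalled the summed distinct exons of a set of GENCODE M21 transcripts within the locus of the table, all of the gene's transcripts there for 7 members and some of them for *Egr3*, *Nr4a1* and *Dusp1*. In this sum, overlapping exons of different transcripts count more than once. For *Egr1* it was 7520 bases, whereas the same exons merged cover 4484 bases, and the locus spans 5162 bases. For *Dusp1* it was 5142 bases in a locus of 2930 bases. For *Egr3* (1416 bases) and *Nr4a1* (2474 bases) the matched exons did not overlap, and merging left the length as it was. With the matched exons merged, an alternative chosen after seeing the data, the levels in the libraries labelled WT were 175 CPM per kilobase for *Ier3*, 49.3 for *Egr1*, 47.4 for *Ier2*, 46.2 for *Btg2*, 7.95 for *Dusp1*, 4.98 for *Egr2*, 2.28 for *Nr4a1*, 1.30 for *Nr4a2*, 0.912 for *Egr3* and 0.0730 for *Nr4a3*. On this scale *Egr1* rose from place 4 to place 2 in the libraries labelled WT, where its range met that of *Ier2*, and the ranges of *Ier2* and *Btg2* overlapped too. In the libraries labelled KO the order was *Ier3* (221), *Ier2* (44.1), *Btg2* (38.3), *Egr1* (36.7), *Dusp1* (20.3), *Nr4a1* (6.40), *Egr2* (3.14), *Nr4a2* (1.22), *Egr3* (1.13) and *Nr4a3* (0.0607). There the ranges of *Btg2* and *Egr1* overlapped, and so did those of *Egr2* and *Nr4a2* and of *Nr4a2* and *Egr3*. *Nr4a1* and *Egr2* exchanged places between the labels. *Egr2* was above *Nr4a1* in each library labelled WT, and *Nr4a1* was above *Egr2* in each library labelled KO. The length is the same in every library, so it has no effect on a comparison of labels for 1 gene.

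**Figure D4:**
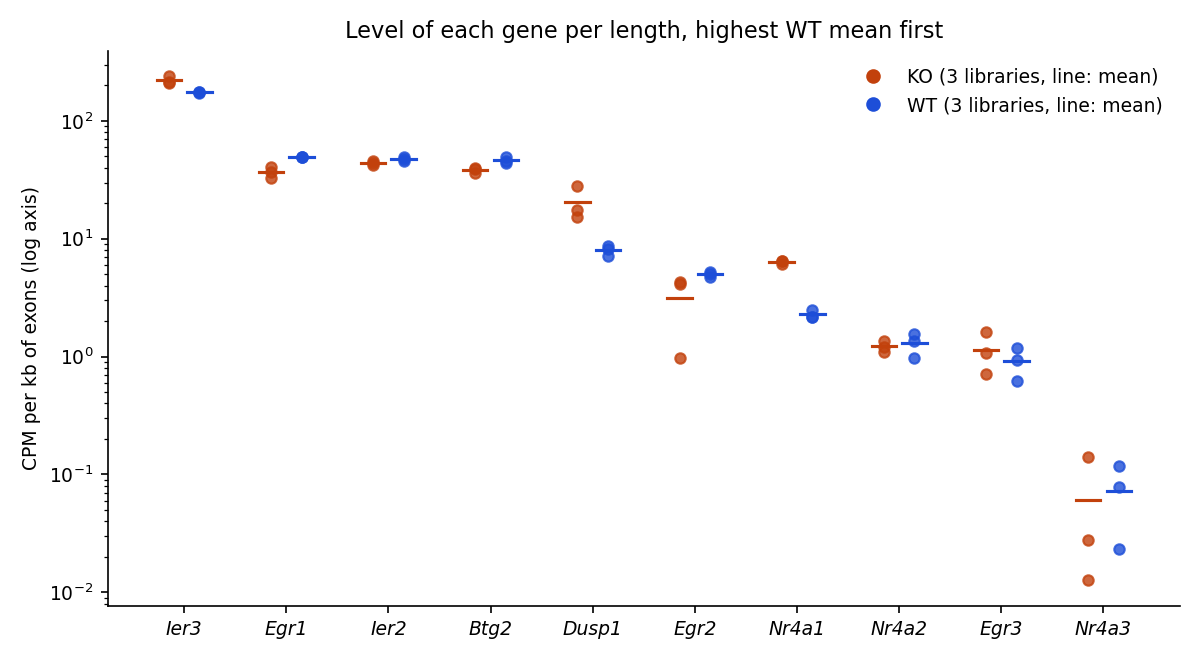
Level of each gene in CPM per kilobase of exons (log axis), with overlaps among the exons behind the FPKM merged, in the 3 libraries of each label (points) and their mean (line). *Ier3* is highest at 175 in the libraries labelled WT and 221 in those labelled KO, *Nr4a3* is lowest, and *Egr2* and *Nr4a1* exchange places between the labels.

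The members also differed in how far replicates spread. The SD of log2 CPM was 0.14 in KO-1 to KO-3 and 0.08 in WT-1 to WT-3 as a median over the tested members, beside 0.12 and 0.10 over all tested genes. *Egr2* had an SD of 1.18 in the libraries labelled KO, above 99.5% of all tested genes, and 0.07 in the libraries labelled WT. *Dusp1* (0.44) and *Egr3* (0.55) were also above 92.7% and 95.8% of the tested genes in the libraries labelled KO. *Nr4a1* was at the other end, with 0.04 in the libraries labelled KO, above 10.7% of the tested genes. In the libraries labelled WT, *Egr1* varied less than nearly all genes, above only 0.341% of them.

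For each tested member, the 3 genes with the nearest profile were found by the root mean square (rms) difference of log2 CPM centred on each gene's own mean over the 6 libraries, as a description without a test. The nearest to *Egr2* was *Pxylp1*, a phosphatase that acts during proteoglycan synthesis, with 8.18, 1.87 and 7.92 CPM in KO-1 to KO-3 and 9.86, 9.14 and 10.0 CPM in WT-1 to WT-3 (rms difference 0.02). It was low in KO-2, as *Egr2* was. *Dram1*, a regulator of autophagy, came next (42.8, 13.9 and 45.5 against 55.5, 58.2 and 53.0 CPM, rms difference 0.16), then *Gm4673* (0.20). Nearest to *Nr4a1* were *Fst*, the activin-binding follistatin (32.6, 31.7 and 33.8 against 12.2, 13.0 and 12.7 CPM, rms difference 0.06), *Egln3*, an oxygen-sensing prolyl hydroxylase (0.06), and *Ace*, angiotensin-converting enzyme (0.07). Nearest to *Dusp1* were *Serpinc1* (0.12), *Hist1h2be* (0.13) and *Deptor* (0.14), each highest in KO-1. Nearest to *Egr1* were *Adamts2*, which trims procollagen (187, 229 and 206 against 278, 283 and 281 CPM), *Itga9* and *Mical1*, each at an rms difference of 0.02. Nearest to *Ier3* were *Mpp6*, *Ctsb* and *Cdc42ep1*, each at 0.02, to *Btg2* *Fgd1* (0.02), *Vimp* (0.02) and *Impact* (0.03), and to *Ier2* *Slc50a1*, *Slc25a46* and *Mzt1*, each at 0.01. *Nr4a2* lay nearest to *Mapk7*, the kinase ERK5 (0.04), *Zfp939* and *Ablim3* (0.07 each), and *Egr3* to *Hsd17b1*, *H2-M2* and *Socs1* (0.16 to 0.18). 

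The members were then set beside other genes of the same response and of the pathways that act on them, in lists chosen with earlier results of these data known. Their counts under TMM follow. Under marker scaling, beside 58.3% of all tested genes, the genes called higher were 8 of 8 for AP-1 and *Atf3* (median 0.74), 24 of 29 for the other rapidly induced genes (0.47), 7 of 9 MAP kinase phosphatases, 13 of 14 of the ERK route, 9 of 10 of the CREB route, 3 of 4 partners, 3 of 4 of the Btg/Tob family and 6 of 10 heat shock genes (edgeR). Of the 8 genes of AP-1 and *Atf3*, 4 were higher and 2 lower, beside 17.7% and 12.5% of all tested genes. Their median was 0.36, and the lower calls were 0 to 2 over the alternatives. *Fosl1* (2.51) and *Atf3* (2.46) rose more than any of the 10 members, and *Jun* rose by 0.50. Each was highest in KO-1, as *Dusp1* was. In KO-1 to KO-3, *Fosl1* had 102, 48.9 and 58.6 CPM, *Atf3* 160, 63.6 and 64.3, and *Jun* 170, 121 and 126. *Fos*, often induced together with *Egr1*, had 14.7, 12.1 and 8.18 CPM in KO-1 to KO-3 and 9.16, 10.4 and 10.5 CPM in WT-1 to WT-3, which overlapped (0.21, adjusted p = 0.463 from edgeR), and it was called higher under marker scaling (0.59, adjusted p = 0.0351). *Junb* fell by 0.23 under TMM, was not called with limma on log2(FPKM + 0.1) (adjusted p = 0.0588), and was called higher under marker scaling (0.15, adjusted p = 0.0396 from edgeR). *Fosl2* was at -0.15 (adjusted p = 0.0358 from edgeR) and was called higher under marker scaling (0.22, adjusted p = 0.00543). It was not called without a filter, with DESeq2, under library size scaling, with either limma fit or without any 1 library other than KO-2 (adjusted p = 0.0554 to 0.119 from edgeR). Of 29 tested among 30 other rapidly induced genes, 9 were higher and 2 lower, beside 17.7% and 12.5% of all tested genes, with a median of 0.09. Without WT-1 or without WT-3 only 4 were higher, beside 2083 of 14357 and 2084 of 14364 tested genes. *Arc*, known from synaptic activity, rose by 3.56 from values near its floor (7.12, 8.62 and 9.92 against 0.769, 0.341 and 1.07 CPM), and *Ptgs2*, which encodes cyclooxygenase 2, rose by 1.80. *Ptgs2* was also highest in KO-1 (1091 CPM, against 576 in KO-2 and 626 in KO-3), while *Arc* was highest in KO-3. *Cyr61*, a matricellular protein, fell by 0.40 and *Zfp36l1*, which promotes mRNA decay, by 0.30, and under marker scaling they were at -0.03 and 0.08 and neither was called.

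**Figure D5:**
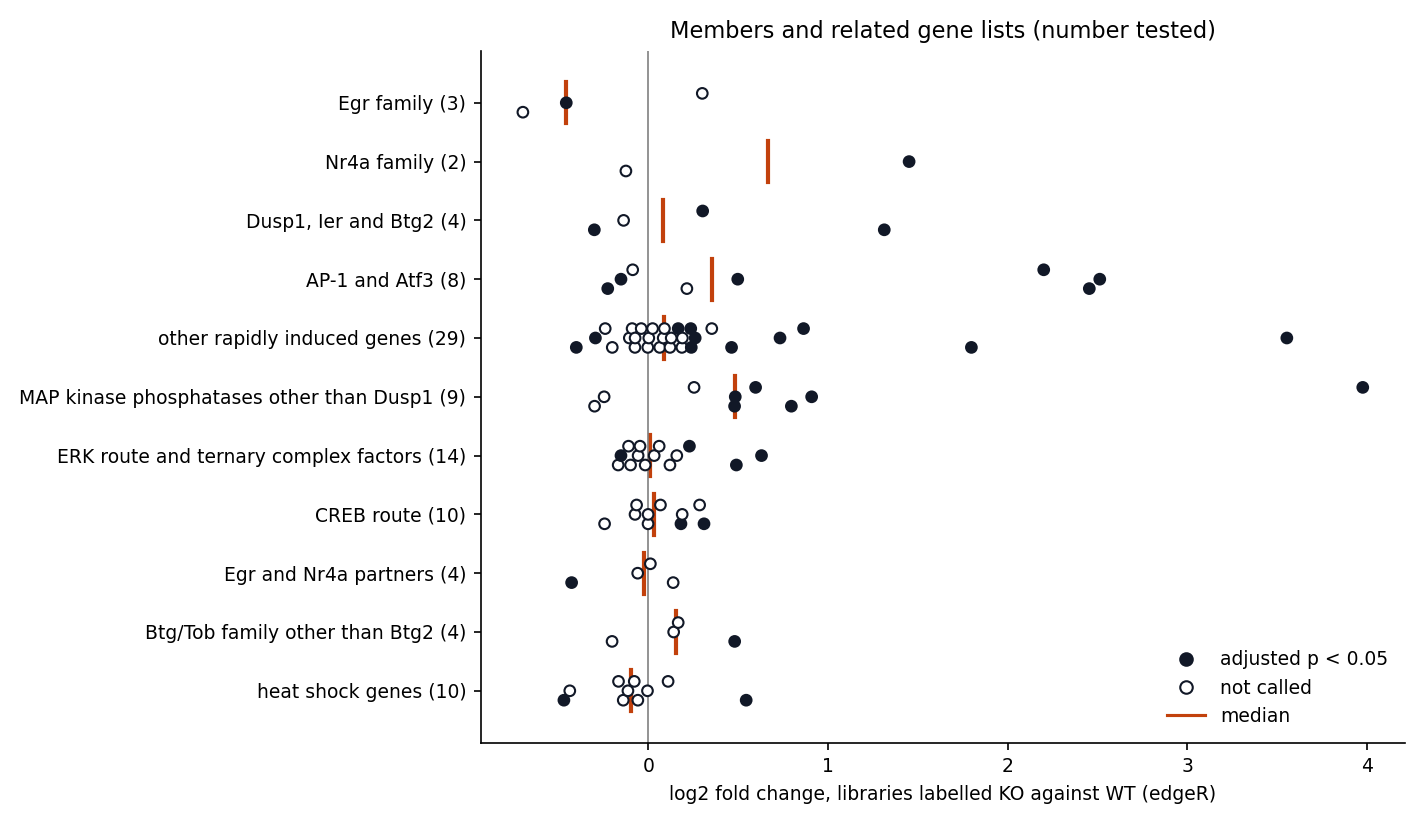
Log2 fold change of each tested gene in the 3 groups of members and in the 8 related lists, with the number tested in brackets, filled where the adjusted p was below the threshold, and with the median of each list as a line. *Dusp2* (3.98) and *Arc* (3.56) lie farthest to the right; under marker scaling the values shift up by about the shift in the median of all genes.

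Among the MAP kinase phosphatases other than *Dusp1*, 6 of 9 were higher, beside 17.7% of all tested genes, and 3 did not pass the threshold, with a median of 0.48. *Dusp2*, a nuclear phosphatase like Dusp1, rose most (3.98; 17.6, 10.9 and 11.7 against 1.05, 0.614 and 0.852 CPM), and was highest in KO-1 as *Dusp1* was, and *Dusp10* rose by 0.91. *Dusp9* and *Dusp8* were at -0.30 and -0.25 (adjusted p = 0.233 and 0.0797 from edgeR) and at 0.07 and 0.13 under marker scaling, and *Dusp8* was called lower under upper quartile scaling (-0.29, adjusted p = 0.0460 from edgeR). Of 14 genes of the ERK route and the ternary complex factors, 3 were higher and 1 lower, beside 17.7% and 12.5% of all tested genes, with a median of 0.01. Without KO-1, without WT-1 or without WT-3 only 1 was higher, and none was lower with any 1 library left out. *Elk3*, a ternary complex factor, rose by 0.49. *Rps6ka3*, a kinase downstream of ERK, was at 0.63 (adjusted p = 0.0260 from edgeR) and was not called without KO-1, KO-2, WT-1 or WT-3 in turn (0.0680 to 0.0867) or with limma on log2(FPKM + 0.1) (0.0571). *Map2k1*, which encodes a kinase upstream of ERK, was at -0.15 (adjusted p = 0.0242 from edgeR), was not called with any 1 library left out (0.0516 to 0.0753), with DESeq2, under library size scaling or with either limma fit, and was called higher under marker scaling (0.23). *Srf*, the gene of serum response factor, was at -0.17 (adjusted p = 0.118 from edgeR) and was called higher under marker scaling (0.21).

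Of the 10 genes of the CREB route, 2 were higher, close to the 17.7% of all tested genes, and 8 did not pass the threshold, with a median of 0.03. Only 1 was higher without a filter, with DESeq2, under upper quartile scaling, with the replicate block, with limma on log2(FPKM + 0.1), and without KO-1, KO-3, WT-1 or WT-2 in turn. *Creb1* itself had 57.4, 53.1 and 55.5 CPM in KO-1 to KO-3 and 43.9, 43.3 and 46.8 CPM in WT-1 to WT-3, a rise of 0.31 (adjusted p = 0.00749 from edgeR). *Crem*, a related factor, was at 0.28 (adjusted p = 0.11 from edgeR) and was called higher under marker scaling (0.66, adjusted p = 0.00208). The coactivator *Crtc3* (-0.24) and the protein kinase A subunit *Prkaca* (-0.08) did not pass the threshold and lay at 0.13 and 0.30 under marker scaling, where *Prkaca* was called higher. *Crtc3* was called lower under upper quartile scaling (adjusted p = 0.0361), with the replicate block (0.0373) and without WT-1 (0.0321), all from edgeR. Of 4 partners of the Egr and Nr4a proteins, 1 was lower, beside 12.5% of all tested genes, and 3 did not pass. *Nab2*, a corepressor that binds Egr1 and is known to be induced by it, had 43.3, 53.6 and 47.7 CPM in KO-1 to KO-3 and 59.7, 68.9 and 66.1 CPM in WT-1 to WT-3, a fall of 0.43 beside 0.46 for *Egr1* (adjusted p = 0.00892 from edgeR). Under marker scaling *Nab2* was at -0.05 and was not called (adjusted p = 0.621). The CPM of *Nab2* per CPM of *Egr1* overlapped between the labels, with 0.298, 0.298 and 0.292 in KO-1 to KO-3 and 0.266, 0.309 and 0.295 in WT-1 to WT-3. *Nab1*, the other corepressor, was at 0.14 (adjusted p = 0.103 from edgeR), and was called higher under marker scaling (0.52, adjusted p = 3.80e-04). The retinoid X receptors *Rxra* (0.01) and *Rxrb* (-0.06), with which Nr4a1 and Nr4a2 can pair, did not pass under TMM and were called higher under marker scaling.

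Of the 4 tested relatives of *Btg2* in the Btg/Tob family, *Tob1* rose by 0.48 (33.5, 34.2 and 34.8 against 24.8, 25.6 and 23.2 CPM), opposite to *Btg2*, and *Btg1* (0.14), *Tob2* (0.17) and *Btg3* (-0.20, and 0.18 under marker scaling) did not pass. *Btg1* was called higher under library size scaling (0.17, adjusted p = 0.0399 from edgeR), and *Btg1* and *Tob2* were under marker scaling. Of 10 heat shock genes, which report a different stress response, 1 was higher (*Hsph1*, 0.54) and 1 lower (*Hspb1*, -0.47), with a median of -0.10. Over all tested genes, 17.7% were higher and 12.5% lower. *Hspb1* was at -0.10 and not called under marker scaling (adjusted p = 0.424 from edgeR), and *Hspa1a* (-0.44) and *Hsp90aa1* (0.11) did not pass under TMM.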

How the data were processed

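RNA-seq reads from 3 libraries labelled KO and 3 labelled WT were mapped by the authors to mm10 with HISAT2, and the submitters' processing notes also name edgeR. The counting tool and strand setting are not given in the sources used here. The deposited counts are whole numbers per gene, without normalisation, and the deposited FPKM are these counts per gene length and library total. The members and lists were chosen with earlier results of these data known. All members are named, and of each list the 2 highest and 2 lowest fold changes, with *Atf3*, *Fos* and *Jun*.

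Counts were tested with edgeR 4.0.16 (R 4.3.3, filterByExpr, TMM, quasi-likelihood test, Benjamini-Hochberg adjustment over 14084 of 20854 genes with any count), and the steps were tested on simulated data. The simulation held few changed genes, with rises and falls equally likely and the same spread for every gene. It did not test TMM scaling where most large changes go in the same direction, as they did here. A count of 0 allows up to 3 counts, or 0.249 CPM in the smallest library (12025403 counts); 3 libraries per label limit the precision. Log2 CPM used a prior count of 2. Pairs of the same label differed by more than sampling noise (22.4% to 31.7% of genes at an unadjusted p under 0.05). Alternatives were other filters and scalings, DESeq2 1.42.0, limma 3.58.1 on log2(FPKM + 1) and log2(FPKM + 0.1), the replicate block, each library left out and a fold change above 2. Figures used matplotlib 3.10.9 in Python 3.11.15.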

Additional observations from a re-analysis of the deposited data

How the results depend on the processing

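The 3 rises and 2 falls among the members kept their calls without a filter, with a mean CPM of at least 1, with DESeq2, with both limma fits, under library size or upper quartile scaling, and with each library left out. Marker scaling changed calls: *Egr1* was at -0.0829 and no longer called, *Btg2* at 0.0764, *Nr4a2* at 0.25 and *Ier2* at 0.24 turned sign, and 0 members were called lower (0 also at an unadjusted p under 0.05, where DESeq2 with its own size factors called 2 lower). By its construction this scaling moves all genes up, to 8215 higher and 64 lower. It also turned *Kdm5b* (0.16), *Junb* (0.15), *Fosl2* (0.22), *Zfp36l1* (0.0828), *Dusp8* (0.13), *Dusp9* (0.0741), *Srf* (0.21), *Map2k1* (0.23), *Crtc3* (0.13), *Prkaca* (0.30), *Btg3* (0.18) and *Rxrb* (0.32) above 0, and *Ier2*, *Fos*, *Junb*, *Fosl2*, *Srf*, *Map2k1*, *Crem*, *Prkaca*, *Nab1*, *Rxra*, *Rxrb*, *Btg1*, *Tob2* and *Hsp90aa1*, none of them called higher under TMM, were called higher there. *Rxra*, near 0 under TMM, was at -0.0313 under upper quartile scaling, and *Hsp90aa1* was called higher without WT-1 (0.18). Leaving out 1 library moved *Rxra* between -0.0356 (without KO-3) and 0.0546 (without KO-1), *Egr3* between -0.0586 (without KO-3) and 0.54, *Nr4a2* between -0.30 and 0.0234 (without WT-3), *Egr2* between -0.97 and -0.27 (without KO-2), and the number of genes lower between 1131 (without KO-3) and 1614 (without KO-2), against 1760 with all 6. A fold change above 2 in addition left 844 genes higher, 38 lower and 0 members lower, and limma on log2(FPKM + 0.1) gave 1158 genes lower. The cause of these differences was not tested beyond the scaling. With the exons behind the FPKM merged, chosen after seeing the data, the places of *Egr1*, *Ier2* and *Btg2* in the libraries labelled WT became 2, 3 and 4, and in both labels *Nr4a2* became 8 and *Egr3* 9.

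Deviations from the label's mean showed no clear pairing by replicate number. Their correlation between same-numbered libraries was 0.002, 0.003 and 0.035. Over all pairs it ran from -0.028 (KO-3 with WT-2) to 0.035 (KO-3 with WT-3), and KO-1 correlated best with WT-2 (0.021). With 3 libraries per label, these values cannot exclude that the animals were paired. With the replicate number as a block, *Dusp1* was at 1.27, *Egr2* at -0.849, and 2318 genes were higher and 1592 lower, and the same 5 members were called.

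Counts were few for *Nr4a3* (1 to 13) and *Egr3* (12 to 35), and their replicates spread more than counting error alone gives in the libraries labelled KO (coefficients of variation of 116% against 43.3%, and of 40.6% against 21.2%).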
